A study of Mus musculus with 14 samples.

Results

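The 33 genes described here encode the machinery that acidifies the lysosome and the scaffold through which the lysosome surface controls growth and its own gene programme. They were chosen by name, as subunits of the vacuolar proton pump (V-ATPase), factors of the MiT/TFE family with Tfeb at its head, Rag and Lamtor genes and their close partners. The choice was made with earlier results of these data known. All 33 were found among the 24394 named genes of the table, and 30 of them passed a filter of at least 10 normalized counts on average over all libraries. RNA was sequenced from microglia, the phagocytes that live in brain tissue, sorted from 18-month-old mice of the C57BL/6 strain. The 7 anti-CD22 libraries came from mice whose cerebrospinal fluid was infused from an osmotic pump for 1 month with an antibody that blocks CD22, a sialic acid receptor that inhibits phagocytes, and the 7 IgG libraries from mice given a control IgG in the same way. All 14 libraries share the pump, the age and the tissue, which was the hemisphere without the cannula. About 20000 living CD11b+ CD45lo cells were sorted for each. The labels give neither the sex of the mice nor whether every library is a mouse of its own, so p-values measure only the spread between these libraries, which may be technical.

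The V-ATPase is a rotary machine in which the V1 part in the cytosol burns ATP and turns the V0 part in the membrane, which carries protons into the lysosome. Its acid lumen lets lysosomal hydrolases work, and microglia depend on it to digest what they engulf. On the same membrane the Ragulator complex of Lamtor proteins anchors Rag GTPases, which recruit the kinase complex mTORC1 when amino acids are plentiful, and active mTORC1 keeps Tfeb out of the nucleus. Tfeb and its relatives Tfe3 and Mitf bind E-box sequences in front of many lysosomal genes, pump genes among them. Most of this control acts on proteins, so transcript levels do not report pump activity or the place of Tfeb in the cell.

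Whole reads of the 13 libraries used for edgeR and DESeq2 ranged from 20221836 to 38101421. Microglial marker genes summed to between 1766460 and 1894890 normalized counts in the anti-CD22 libraries, against 1671720 to 1981650 in the IgG libraries, and the sums of the marker lists for 8 other cell types also overlapped between the groups. Neutrophil sums ran from 0 to 10216 with anti-CD22 and from 3.34 to 54005 with IgG (medians 2567 and 1339). Monocyte sums ran from 88.2 to 2338 and from 137 to 9230 (medians 546 and 660). Whether such cells contributed to the values below was not tested. The summed level of 11 immediate early genes did not overlap, at 8544 to 13010.2 normalized counts with anti-CD22 and 13400 to 15793.5 with IgG, and its part in the results below was not tested. Cd22, which encodes the antibody's target, averaged 1481 ± 184 and 1469 ± 279 normalized counts with anti-CD22 and with IgG (SD, n = 7 each). Long transcripts were relatively more abundant in most anti-CD22 libraries. Across genes within a library, the rank correlation of transcript length with the log2 level centred on the gene mean averaged 0.124 ± 0.219 with anti-CD22 and -0.113 ± 0.098 with IgG (SD, n = 7 each, two-sided exact permutation p = 0.0286). It was highest in anti-CD22 replicates 1, 2 and 3, at 0.311, 0.287 and 0.328. The same correlation with GC content was -0.309, -0.401 and -0.361 in those 3 libraries. It ran from -0.0234 to 0.255 in the other anti-CD22 libraries and from 0.00985 to 0.278 in the IgG libraries. Across tested genes of known length the log2 fold change had a rank correlation of 0.361 with length and -0.307 with GC content. The main results are therefore also given with the trend on length and GC content removed in every library.

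Promoters of these genes were searched for CACGTG, the core of the E-box that Tfeb binds, and a few are printed because Tfeb and genes it can bind stand side by side in this set. RefSeq windows on GRCm38.p6, from 250 bases before to 50 after an annotated start, were held for 27 of the 33 genes. The core was found in 10 of these 27 genes (37% of them), against 8.09% of all 27025 genes with a window and 12% of the 8961 such genes that were expressed enough to be tested. It reads the same on both strands, so each match was counted once. The longer form TCACGTGA, which contains the core, was found in 5 of the 27 (Atp6v0d1, Atp6v0e, Atp6v1a, Clcn7 and Mcoln1) and in 1.12% of all genes. As shares of single windows, 7.15% of 32851 windows held the core and 0.974% the longer form. A match describes letters and not a bound site.

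The 250 bases before the start are shown 5′ to 3′ for the calcium channel gene Mcoln1 (chr8:3500269-3500518, plus strand), the chloride transporter gene Clcn7 (chr17:25133141-25133390, plus strand), the V0 gene Atp6v0b (chr4:117887330-117887579, minus strand) and the V1 gene Atp6v1a (chr16:44139260-44139509, minus strand), with the core in capitals. The promoter of Tcirg1 (chr19:3907134-3907383, minus strand), the pump gene with the smallest p below, is shown beside them because it holds no core.
Mcoln1: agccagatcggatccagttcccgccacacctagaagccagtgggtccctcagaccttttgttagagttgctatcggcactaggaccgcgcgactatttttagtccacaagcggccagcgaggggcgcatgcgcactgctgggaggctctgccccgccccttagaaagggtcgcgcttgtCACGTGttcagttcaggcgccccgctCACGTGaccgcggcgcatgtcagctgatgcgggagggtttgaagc
Clcn7: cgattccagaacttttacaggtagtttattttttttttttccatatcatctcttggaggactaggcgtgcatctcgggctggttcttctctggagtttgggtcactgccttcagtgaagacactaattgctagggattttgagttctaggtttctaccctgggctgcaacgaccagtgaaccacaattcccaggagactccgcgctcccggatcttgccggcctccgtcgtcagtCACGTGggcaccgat
Atp6v0b: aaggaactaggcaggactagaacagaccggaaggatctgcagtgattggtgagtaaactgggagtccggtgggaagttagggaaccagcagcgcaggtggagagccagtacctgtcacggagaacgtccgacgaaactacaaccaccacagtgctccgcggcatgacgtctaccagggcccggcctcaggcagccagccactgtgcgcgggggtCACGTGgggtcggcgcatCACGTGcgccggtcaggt
Atp6v1a: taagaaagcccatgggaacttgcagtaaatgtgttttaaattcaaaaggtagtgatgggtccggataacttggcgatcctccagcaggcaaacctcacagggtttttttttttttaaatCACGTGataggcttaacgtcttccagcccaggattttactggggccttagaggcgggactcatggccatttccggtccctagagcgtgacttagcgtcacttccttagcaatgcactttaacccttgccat
Tcirg1: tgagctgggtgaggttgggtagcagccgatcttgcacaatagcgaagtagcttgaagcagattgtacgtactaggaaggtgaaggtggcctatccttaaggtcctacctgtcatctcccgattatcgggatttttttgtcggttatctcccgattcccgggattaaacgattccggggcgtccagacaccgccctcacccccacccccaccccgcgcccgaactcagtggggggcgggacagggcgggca
Counted from the start site, the core began at -71 and -45 in Mcoln1, at -15 in Clcn7, where another begins 7 bases after the start, at -36 and -18 in Atp6v0b and at -131 in Atp6v1a. The core was in none of the 3 windows of Tcirg1 or the 3 of Tfeb. Of the 9 tested genes with the core, 9 had a log2 fold change below 0, with a median of -0.10. Of the 16 tested genes with a window but no core 10 did, with a median of -0.03. Among all tested genes 49.8% were below 0. Once the trend on length and GC was removed, Atp6v0b (0.04), Atp6v0d1 (0.03), Lamtor4 (0.0042) and Rragc (0.0038) stood above 0. Atp6v0e, Atp6v1a, Clcn7, Lamtor1 and Mcoln1 stayed below. In that fit the medians with and without the core were -0.01 and -0.04, so the order of these small medians turned round. For the longer form TCACGTGA the order did not turn. The 5 tested genes with it had a median of -0.10 and the 20 without it -0.05. With the trend removed the medians were -0.10 and -0.0055, although Atp6v0d1, 1 of the 5, then stood at 0.03. None of the 5 passed limma, with adjusted p from 0.448 to 0.810. Whether the medians of such small groups differ was not tested.

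Levels between genes are compared as normalized counts per kilobase of the longest annotated transcript, which may not be the one microglia use. Atp6ap1, an accessory subunit that helps to assemble the pump, stood highest at 15781 ± 656 with anti-CD22 and 15674 ± 476 with IgG (SD, n = 7 each). Atp6v0b, a membrane-embedded ring subunit of V0, followed at 11790.2 ± 1047 and 12677 ± 509.8, and then came Atp6v1g1, part of a stalk of V1, at 5549 ± 344 and 6082 ± 383. Among V1 genes the level per kilobase went down to 609.6 ± 46.1 and 614 ± 31.2 for Atp6v1d, a part of the central rotor. Neighbours in the middle of the order, such as Atp6v0d1, Atp6v1c1 and Flcn, lay within their spread of each other. Over all libraries folliculin (Flcn) and Rragc lay among the pump genes at 2044 and 2450.1 normalized counts per kilobase, the Lamtor genes between 418 for Lamtor4 and 1199 for Lamtor1, Tfe3 at 719.7 and Tfeb at 583. Mitf was far lower, at 65.9 ± 16.5 with anti-CD22 and 62.8 ± 21.9 with IgG.

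**Figure D1:**
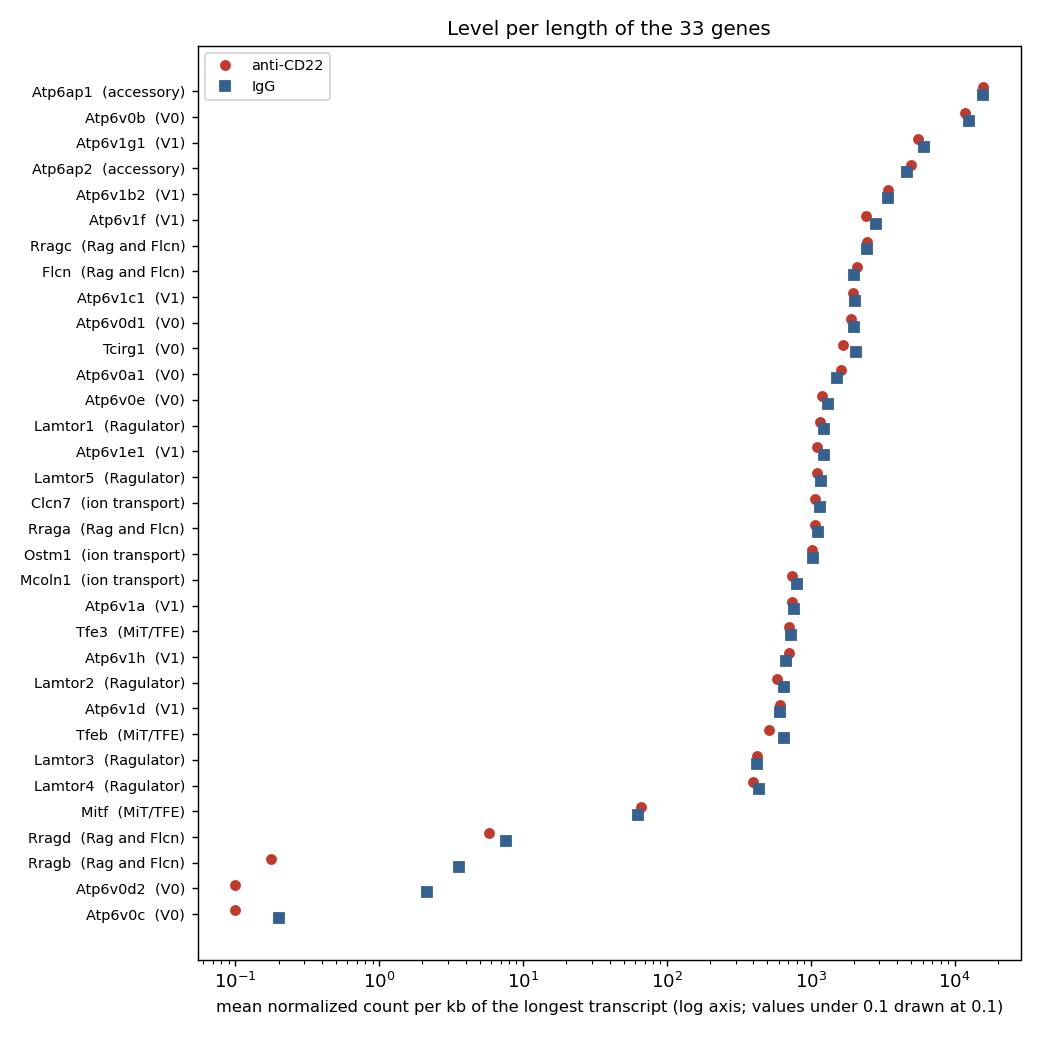
Mean normalized count per kilobase of the longest transcript (horizontal log axis) for each of the 33 genes, with the role in brackets, for anti-CD22 (circles) and IgG (squares). From Atp6ap1 at the top to Lamtor4 the means over all libraries lie between 15728 and 418, and Mitf, Rragd, Rragb, Atp6v0d2 and Atp6v0c stand far below.

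In the V0 part 4 of 5 tested genes had a log2 fold change below 0, or 2 of 5 with the trend removed, and 0 passed limma. Of all tested genes 49.8% were below 0, or 47.2% with the trend removed. The smallest p among the V0 genes was that of Tcirg1. It encodes the a3 form of the large a subunit that carries protons and steers the pump to a compartment. Tcirg1 (ENSMUSG00000001750.16, chromosome 19: 3896050 to 3907133, GRCm38) had a lowest, median and highest value of 4349.9, 5159.7 and 5555 normalized counts with anti-CD22, against 5533, 6490.5 and 6957 with IgG. Every anti-CD22 library, 7 of 7, was under the median of the IgG libraries, and the groups touched only where the highest anti-CD22 library passed the lowest IgG library. The log2 fold change was -0.29 (SE 0.0642, a level 1.22-fold lower), with an adjusted p of 0.163 by limma over all 11646 genes, of which 0.00859% passed the threshold of 0.05, and Tcirg1 was not among them. DESeq2 on the reads of 13 libraries called it (log2 fold change -0.25, adjusted p = 0.0185), where 0.41% of the 7807 genes with an adjusted p were called, and edgeR did not (adjusted p = 0.373). Both left out anti-CD22 replicate 3, the library with the lowest Tcirg1 value. With the trend removed the log2 fold change was -0.19 (SE 0.0523, adjusted p = 0.254), and without anti-CD22 replicates 1, 2 and 3 it was -0.23 (adjusted p = 0.756). The longest transcript of Tcirg1 has a length of 3041 nucleotides and a GC content of 58.6%.

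Atp6v0a1 encodes the a1 form, an alternative to a3 in the same pump. It ranged over 5990.3, 6804 and 7397 normalized counts (lowest, median, highest) with anti-CD22 and 5586, 6400.2 and 6908 with IgG, a difference of 0.09 on the log2 scale (SE 0.0588, adjusted p = 0.531; 0.05 with the trend removed). Per kilobase, Tcirg1 stood at 1687 ± 125 beside 1629 ± 121 for Atp6v0a1 with anti-CD22, and at 2061 ± 171 beside 1531 ± 97.3 with IgG (SD, n = 7 each). The ratio of the 2 genes within a library, which does not depend on the size factor, fell with anti-CD22. The log2 ratio of Tcirg1 to Atp6v0a1 ran from -0.76 to -0.22 in the anti-CD22 libraries and from -0.11 to 0.04 in the IgG libraries, with no overlap. The means were -0.40 ± 0.18 and -0.03 ± 0.06 (SD, n = 7 each), a difference of -0.38 (95% interval -0.54 to -0.21), with a two-sided exact permutation p of 0.000583, the smallest that 3432 assignments can give, and an adjusted p of 0.00175 over the 3 ratios tested. Tcirg1 was already known to have a small p in these libraries when this ratio was set, so the ratio is no independent support for it. Once the trend on length and GC was removed, the difference was -0.24 (95% interval -0.45 to -0.03, exact permutation p = 0.0192, adjusted p = 0.0577), anti-CD22 replicate 2 lay above all IgG libraries and the call was lost. Without anti-CD22 replicates 1, 2 and 3 the difference was -0.33 (exact permutation p = 0.00303, adjusted p = 0.00909).

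**Figure D2:**
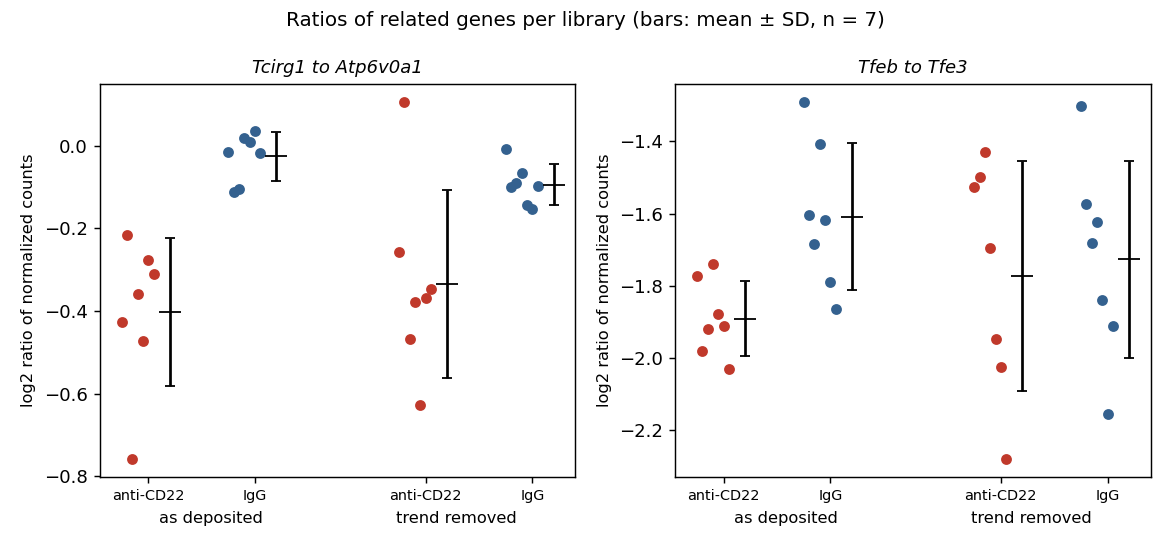
Log2 ratio of normalized counts within each library (vertical axis) for Tcirg1 to Atp6v0a1 and for Tfeb to Tfe3, as deposited and with the length and GC trend removed; points are libraries and bars give the mean ± SD (n = 7). As deposited, the 7 anti-CD22 ratios of Tcirg1 to Atp6v0a1 lie below all 7 IgG ratios, and with the trend removed 1 of them (0.11) lies above.

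The other V0 genes showed smaller differences, none of which passed limma. Atp6v0b had 10544, 11478 and 13414 normalized counts (lowest, median, highest) with anti-CD22, against 11808, 12768 and 13453 with IgG, with 6 of 7 anti-CD22 libraries under the middle IgG value. Its log2 fold change was -0.11 (adjusted p = 0.423) and turned to 0.04 with the trend removed, and 11.8% of its exon length is shared with the antisense gene Gm12841, from whose reads it cannot be told apart because the library kit does not mark strand. Atp6v0e, a small membrane subunit, stood at 3072, 3174 and 4094 with anti-CD22 against 3410.4, 3550.1 and 4135 with IgG, a difference of -0.14 on the log2 scale (SE 0.0735, adjusted p = 0.448; -0.13 with the trend removed). Atp6v0d1, the d subunit that couples the rotor to the ring, had 2927, 2984 and 3697 with anti-CD22 against 3086, 3212 and 3487 with IgG and differed by -0.07 on the log2 scale (adjusted p = 0.634) and by 0.03 with the trend removed. Its alternative Atp6v0d2, known from osteoclasts and other macrophages, was listed at 0 in 13 libraries and at 38.1 normalized counts in IgG replicate 1. Atp6v0c, the gene of the main ring subunit, was listed at 0 in 11 libraries and at no more than 2.23 normalized counts in the other 3. The annotation holds processed pseudogene copies named Atp6v0c-ps1 and Atp6v0c-ps2, the entry for Atp6v0c-ps2 was at 0 in every library, and no source used here says how reads that match several copies were counted. The value of Atp6v0c is therefore uncertain and gives no level for this subunit.

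**Figure D3:**
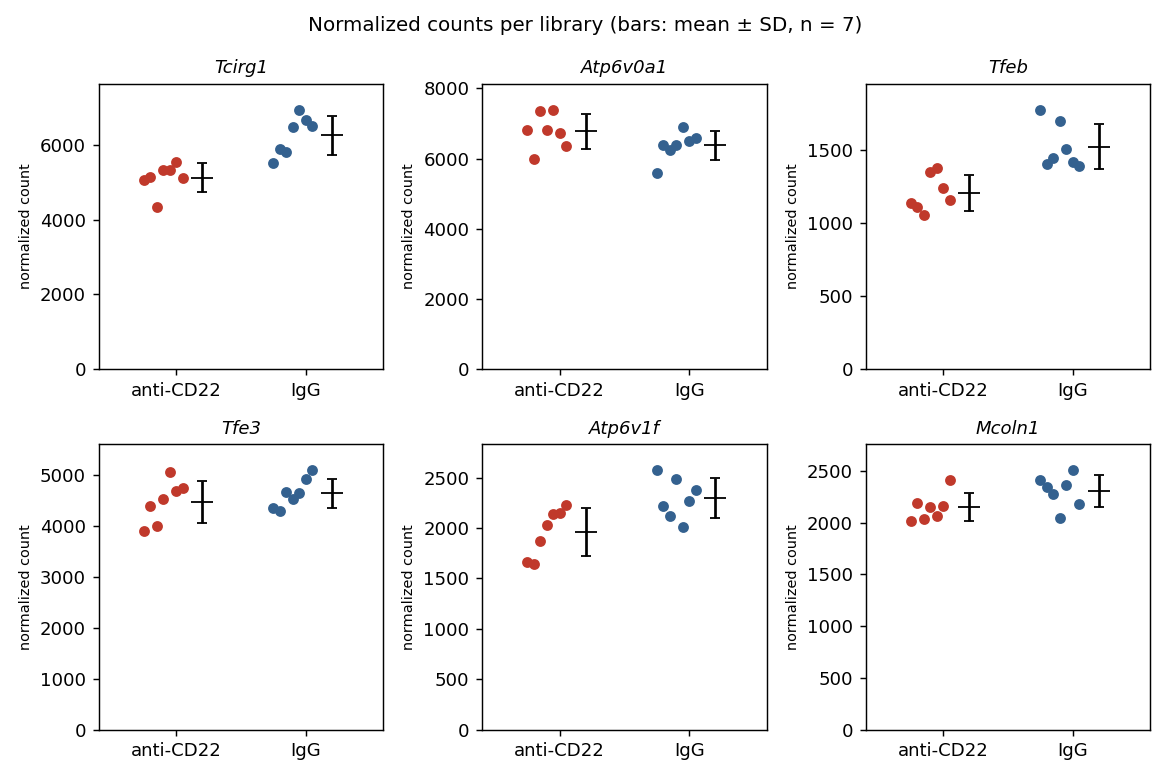
Normalized counts (vertical axis, from 0) of Tcirg1, Atp6v0a1, Tfeb, Tfe3, Atp6v1f and Mcoln1 in each anti-CD22 and IgG library; points are libraries and bars give the mean ± SD (n = 7). The Tfeb points of the groups do not overlap (highest anti-CD22 1376, lowest IgG 1396), Tcirg1 nearly separates, and Tfe3 and Atp6v0a1 overlap widely.

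In the V1 part 7 of 8 genes had a log2 fold change below 0, against 49.8% of all tested genes, and 0 passed limma. With the trend removed 7 of 8 were below 0, against 47.2% of all, but not the same 7. Atp6v1b2 turned above 0 and Atp6v1h below it. The median of the 8 was -0.05, and -0.10 with the trend removed. Atp6v1f, a small subunit of the central stalk, had the smallest p, with 1646, 2028 and 2231 normalized counts (lowest, median, highest) in the anti-CD22 libraries and 2014, 2272 and 2573 in the IgG libraries. In 7 of 7 anti-CD22 libraries the value was under the IgG median, and the 2 lowest values came from anti-CD22 replicates 1 and 2. The log2 fold change was -0.23 (SE 0.0831, adjusted p = 0.292), and -0.10 with the trend removed. Atp6v1e1, part of the peripheral stalks that hold the ATPase head still, had 2822, 3228 and 3628 with anti-CD22 against 3392, 3495 and 3958 with IgG, a difference of -0.17 on the log2 scale (SE 0.0635, adjusted p = 0.314; -0.13 with the trend removed). Its stalk partner Atp6v1g1 had 5938, 6116 and 6834 with anti-CD22 against 6413, 6980.1 and 7412 with IgG, again with 7 of 7 anti-CD22 libraries below the median of IgG. The log2 fold change of Atp6v1g1 was -0.13 (SE 0.0553, adjusted p = 0.348; -0.05 with the trend removed).

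The genes of the catalytic head had log2 fold changes near 0 in the deposited values. Atp6v1a, which encodes the subunit that splits ATP, averaged 3125 ± 258 normalized counts with anti-CD22 and 3214 ± 192 with IgG (SD, n = 7 each; log2 fold change -0.04, SE 0.0640; -0.10 with the trend removed). Its head partner Atp6v1b2 averaged 9663 ± 659.9 and 9729 ± 432 (log2 fold change -0.01, SE 0.0518; 0.03 with the trend removed). Atp6v1c1, which links head and stalks when the pump assembles, and the rotor gene Atp6v1d had log2 fold changes of -0.06 and -0.01 in the deposited values. Atp6v1h, a regulator that brakes free V1, had 0.07, which turned to -0.10 with the trend removed. Atp6v1c1 stood at -0.15 in that fit (SE 0.0542, adjusted p = 0.410). The accessory gene Atp6ap1 averaged 34545 ± 1436 with anti-CD22 and 34311 ± 1042 with IgG, with the smallest SE of the set (log2 fold change 0.01, SE 0.0402, adjusted p = 0.943), and with the trend removed it was 0.08 (SE 0.0378, adjusted p = 0.509). Atp6ap2, known as the prorenin receptor and needed for pump assembly, had 10134, 11935 and 13577 normalized counts (lowest, median, highest) with anti-CD22 and 10173, 10710.4 and 11752 with IgG, a difference of 0.10 on the log2 scale (SE 0.0633, adjusted p = 0.496; 0.08 with the trend removed).

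The ion transport genes of the lysosome membrane each had a log2 fold change below 0, and 0 of the 3 passed limma. Clcn7, a chloride-proton exchanger that balances charge while the pump runs, had 3790.2, 4613 and 5232 normalized counts (lowest, median, highest) with anti-CD22 against 4317, 4901 and 5400.3 with IgG. The lowest value was anti-CD22 replicate 7, and the log2 fold change was -0.12 (SE 0.0692, adjusted p = 0.474; -0.11 with the trend removed). Its obligate partner Ostm1 averaged 4488 ± 218 normalized counts with anti-CD22 and 4534 ± 291 with IgG (SD, n = 7 each; log2 fold change -0.01, SE 0.0554; -0.07 with the trend removed). Mcoln1, the calcium release channel that can switch Tfeb on through calcineurin, had 2015, 2152 and 2415 with anti-CD22 against 2042, 2344 and 2504 with IgG. In 6 of 7 anti-CD22 libraries Mcoln1 was under the IgG median, and the groups differed by -0.10 on the log2 scale (SE 0.0642, adjusted p = 0.517; -0.06 with the trend removed).

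Among the MiT/TFE factors 2 of 3 had a log2 fold change below 0, 0 passed limma, and Tfeb had the smallest p. Tfeb (ENSMUSG00000023990.18, chromosome 17: 47737030 to 47792419, GRCm38) had 1055, 1161 and 1376 normalized counts (lowest, median, highest) with anti-CD22, against 1396, 1452 and 1781 with IgG. It was the only tested member whose groups did not overlap, where 0.12% of all tested genes (14 of 11646) were lower without overlap and 0.137% (16) were higher. Its log2 fold change of -0.34 (SE 0.0839, a level 1.27-fold lower) had an adjusted p of 0.176 by limma, of 0.0747 by DESeq2 and of 0.403 by edgeR, and so passed none of them. DESeq2 and edgeR were run without anti-CD22 replicate 3, which had the lowest Tfeb value. The values of anti-CD22 replicates 1, 2 and 3, at 1138, 1113 and 1055, were the lowest 3 of all libraries. With the trend removed the log2 fold change was -0.18 (SE 0.0953, adjusted p = 0.580), and without those 3 libraries it was -0.25 (adjusted p = 0.889). At 63.2% the longest Tfeb transcript has the highest GC content of the 33 genes.

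Tfe3, which acts on many of the same promoters and per kilobase was the more abundant, had 3892, 4524 and 5058 normalized counts (lowest, median, highest) with anti-CD22 and 4288, 4633 and 5087 with IgG, a difference of -0.06 on the log2 scale (SE 0.0647, adjusted p = 0.735; -0.13 with the trend removed). The log2 ratio of Tfeb to Tfe3 fell with anti-CD22, with means of -1.89 ± 0.10 and -1.61 ± 0.20 for anti-CD22 and IgG (SD, n = 7 each). It ran from -2.03 to -1.74 in the anti-CD22 libraries and from -1.87 to -1.29 in the IgG libraries, so the ranges overlapped. The difference was -0.28 (95% interval -0.48 to -0.09, two-sided exact permutation p = 0.00583, adjusted p = 0.00874 over 3 ratios). This ratio too was set with earlier results of these data known, so it is no independent support for Tfeb. The difference shrank to -0.05 with the trend removed (95% interval -0.39 to 0.30, exact permutation p = 0.777, adjusted p = 0.955). Without anti-CD22 replicates 1, 2 and 3 it stayed at -0.28, with an exact permutation p of 0.0394 and an adjusted p of 0.0591. Mitf, better known for pigment cells and osteoclasts, varied more between libraries than between groups, from 229 to 452 with anti-CD22 and from 158 to 446 with IgG (log2 fold change 0.11, SE 0.216, adjusted p = 0.858).

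The Rag GTPases work as pairs of RagA or RagB with RagC or RagD, and in these libraries reads of Rraga and Rragc were abundant while those of Rragb and Rragd were few. Rragc had 6329, 7125 and 8292 normalized counts (lowest, median, highest) with anti-CD22 and 6374, 7071 and 8343 with IgG (log2 fold change -0.01, SE 0.0667, adjusted p = 0.969), and 7.9% of its exon length is shared with a gene on the other strand. Rraga had 1519, 1683 and 1935 with anti-CD22 and 1429, 1747 and 2337 with IgG (log2 fold change -0.05, adjusted p = 0.864). Rragd, itself a known Tfeb target, had 3.33, 32.3 and 55.5 with anti-CD22 and 0, 25.6 and 98.5 with IgG, and its log2 fold change of 0.02 had an SE of 0.813, so that neither direction could be told. Without IgG replicate 5, where Rragd was listed at 0, the log2 fold change was -0.73 (SE 0.570). The log2 ratio of Rragd to Rragc differed by 0.03 with a 95% interval of -2.03 to 2.09 (two-sided exact permutation p = 0.971, adjusted p = 0.971). Rragb was too low to be tested. It was above 0 in 1 of 7 anti-CD22 libraries, at 2.78 normalized counts, and in 4 of 7 IgG libraries, at 6.90, 10.1, 19.9 and 19.96.

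Folliculin, which sets the nucleotide state of RagC and RagD and so decides whether mTORC1 can hold Tfeb, had 6964, 7423 and 7929 normalized counts (lowest, median, highest) with anti-CD22 and 6737, 7153 and 7430.0 with IgG. Its log2 fold change was 0.06 (SE 0.0479, adjusted p = 0.587) and 0.10 with the trend removed (SE 0.0436, adjusted p = 0.467), in both cases above 0. The Ragulator genes all had a log2 fold change below 0, from -0.19 for Lamtor2 to -0.0010 for Lamtor3, and 0 of the 5 passed limma, with adjusted p from 0.520 to 0.997. Lamtor2, which forms a pair with Lamtor3 inside the complex, had 317, 374 and 526 with anti-CD22 against 387, 444 and 494 with IgG (log2 fold change -0.19, SE 0.120). Lamtor3 itself averaged 1149.9 ± 145 normalized counts with anti-CD22 and 1144 ± 72.0 with IgG (SD, n = 7 each). Lamtor1, the lipid-anchored subunit that wraps round the others, shares 18.7% of its exon length with Lrrc51 on the other strand and had a log2 fold change of -0.08 (SE 0.0833). Lamtor4 and Lamtor5, which form another pair, had -0.15 (SE 0.143) and -0.08 (SE 0.0926). With the trend removed the 5 values lay between -0.03 and 0.02. The median of their longest transcripts is 980 nucleotides, against 3340 for all tested genes.

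**Figure D4:**
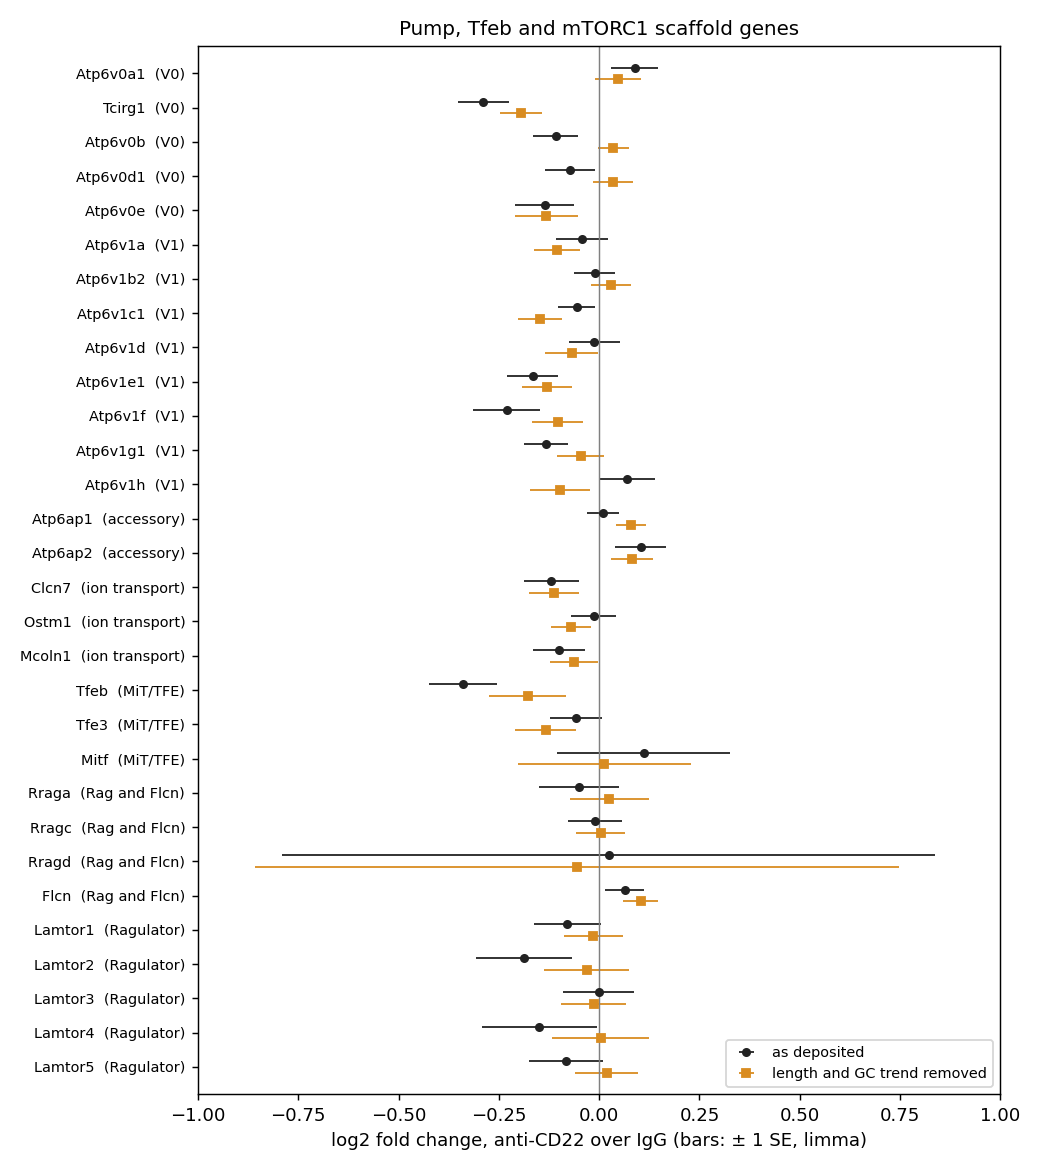
Log2 fold change of anti-CD22 over IgG (horizontal axis, bars ± 1 SE from limma) for the 30 tested genes, as deposited (circles) and with the length and GC trend removed (squares). Tcirg1 (-0.29 and -0.19) and Tfeb (-0.34 and -0.18) lie farthest left in the deposited values, and the Lamtor genes move to near 0 when the trend is removed.

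Read as a set, 0 of the 30 tested members passed limma at an adjusted p of 0.05, where 0.00859% of all tested genes did (1 of 11646). Without anti-CD22 replicate 7 limma called 43 genes and again 0 members, and with any other library left out it called 0 to 2 genes and 0 members. At an unadjusted p under 0.05 stood 5 members (16.7%), against 12.8% of all tested genes. All 5 were lower with anti-CD22 (Tcirg1, Tfeb, Atp6v1f, Atp6v1e1 and Atp6v1g1), where 5.95% of all tested genes were lower at that p, and 0 were higher, against 6.8% of all. After removal of the trend 4 members stood at that p. Tcirg1 and Atp6v1c1 were lower (2 members, 6.67%, against 4.27% of all tested genes), and Flcn and Atp6ap1 were higher (2 members, 6.67%, against 5.39%). Tfeb, Atp6v1f, Atp6v1e1 and Atp6v1g1 no longer stood at it, with unadjusted limma p of 0.0761, 0.120, 0.0502 and 0.440. That of Atp6v1e1 thus lay at the edge of the threshold. By edgeR 0 members passed an adjusted p of 0.05, where 0% of all tested genes did, and 4 stood at an unadjusted p under 0.05 (13.3%, against 8.82% of all). A log2 fold change below 0 was found for 23 of 30 members (76.7%), against 49.8% of all tested genes, and the median was -0.06 against 0.0011 for all. With the length and GC trend removed 18 of 30 members (60%) were below 0, against 47.2% of all, and the median was -0.04 against 0.01. In bulk samples fewer cells of a type and less RNA per cell cannot be told apart.

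By library, the median over the 30 tested members of the log2 level relative to each gene's mean was below 0 in 6 of 7 anti-CD22 libraries, from -0.10 in replicate 1 to -0.02 in replicate 6. Anti-CD22 replicate 7 stood apart at 0.08, with 21 members above their mean, and was also the library with the lowest length correlation, at -0.271. In the IgG libraries the median ran from -0.01 in replicate 1 to 0.06 in replicate 7. Within groups the members varied little, with a median SD of 0.12 on the log2 scale against 0.25 for all tested genes. This was not particular to the set. Of the pathway lists described below, it was 0.10 for Tfeb targets and 0.13 for other lysosomal channels and membrane proteins. Further pump genes had 0.42, and genes of mTORC1 and its amino acid sensing 0.30. These lists were not matched for level. Among the tested members the SD was largest in the lowest ones, Rragd (1.77 at a mean of 34.1 normalized counts) and Mitf (0.45 at 314).

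**Figure D5:**
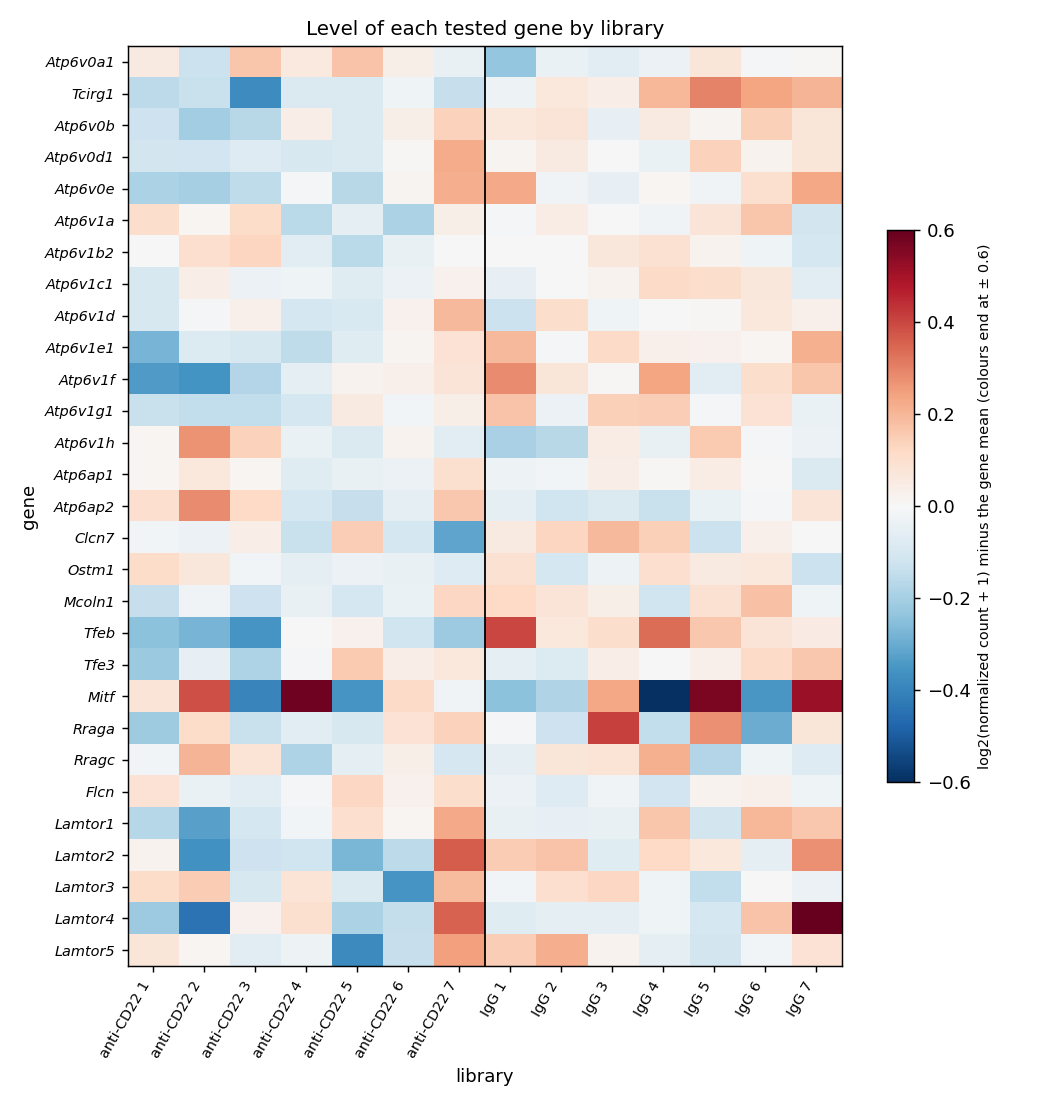
Log2(normalized count + 1) of each tested gene minus its mean over the 14 libraries (colour, red above and blue below, ending at ± 0.6), with genes down the page and libraries across, anti-CD22 left of the line and IgG right of it; Rragd, which varies far beyond this range, is not drawn. Tcirg1 and Tfeb are blue in most anti-CD22 libraries and red in most IgG libraries, and anti-CD22 replicate 7 has 21 of the 30 tested members above their mean.

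Genes of the same pathways outside the set were counted next in 4 lists, and 0 passed limma in any of them. Of 15 tested further pump subunits and assembly factors 11 were higher and 4 lower, and their median was 0.08 on the log2 scale (10 higher, 5 lower and 0.05 with the trend removed). Vma21, an assembly chaperone of V0, had 1348, 1758 and 2039 normalized counts (lowest, median, highest) with anti-CD22 against 1202, 1351 and 1609.7 with IgG (log2 fold change 0.29, SE 0.0986, adjusted p = 0.262; 0.13 with the trend removed). Rogdi, of the complex that rejoins V1 with V0, had 3228, 3740.1 and 4360 with anti-CD22 against 3878, 4258 and 4997 with IgG (log2 fold change -0.20, SE 0.0758, adjusted p = 0.305; -0.05 with the trend removed). Dmxl2, of the same complex, had 70.4, 93.1 and 163 with anti-CD22 against 26.8, 64.9 and 148 with IgG (log2 fold change 0.64, SE 0.355, adjusted p = 0.456; 0.46 with the trend removed). Of 28 genes of mTORC1 and its amino acid sensing 18 were higher and 10 lower, with a median of 0.06 (19, 9 and 0.05 with the trend removed). Slc38a9, the arginine sensor of the lysosome membrane that binds Ragulator and Rag proteins, had 1392, 1512 and 1689.5 with anti-CD22 against 729, 1267 and 1433 with IgG. Slc38a9 was above the IgG median in 7 of 7 anti-CD22 libraries (log2 fold change 0.36, SE 0.119, adjusted p = 0.258; 0.19 with the trend removed). Fnip2, a partner of folliculin, had 638, 876 and 1091 with anti-CD22 against 434, 605 and 1087 with IgG (log2 fold change 0.50, SE 0.172, adjusted p = 0.282; 0.38 with the trend removed). Mios, a part of the GATOR2 complex that relays amino acid signals to the Rags, had 689, 789 and 944 with anti-CD22 against 537, 623 and 753 with IgG (log2 fold change 0.29, SE 0.104, adjusted p = 0.292; 0.24 with the trend removed). Both were above the IgG median in 7 of 7 anti-CD22 libraries.

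Other lysosomal channels and membrane proteins were split, with 8 of 18 higher and 10 lower and a median of -0.03, and with 10 higher, 8 lower and a median of 0.02 once the trend was removed. Clcn3, a relative of Clcn7, had 1877, 2600.6 and 3340.2 normalized counts (lowest, median, highest) with anti-CD22 against 1941, 2132 and 2443 with IgG (0.28 on the log2 scale, SE 0.107, adjusted p = 0.314; 0.09 with the trend removed). The membrane glycoprotein gene Lamp2 had 40973, 44552 and 54772 with anti-CD22 against 38633, 42977 and 44244 with IgG (0.13, SE 0.0632, adjusted p = 0.383; 0.03 with the trend removed). The metal transporter gene Slc11a1 had 19146, 21645 and 23549 with anti-CD22 against 21061, 23359 and 23951 with IgG (-0.10, adjusted p = 0.407; -0.02 with the trend removed). Each of the 3 thus lay nearer to 0 with the trend removed.

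Of 24 genes that other work has placed among the targets of Tfeb, mostly hydrolases, 16 were lower and 8 higher, with a median of -0.04. With the trend removed 9 were lower and 15 higher, with a median of 0.03. Scpep1, a serine carboxypeptidase, had 6674, 7145 and 7387 with anti-CD22 against 7609.5, 7827 and 8349 with IgG. It was chosen for its small p, and its groups did not overlap, as for 0.12% of all tested genes in that direction. Its log2 fold change was -0.15 (SE 0.0449, adjusted p = 0.231; -0.08 with the trend removed). The sialidase gene Neu1 had 2788, 3164 and 3442 with anti-CD22 against 3201, 3441 and 3850.4 with IgG (-0.16, SE 0.0649, adjusted p = 0.328; -0.14 with the trend removed).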

How the data were processed

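RNA of sorted microglia was sequenced in 7 anti-CD22 and 7 IgG libraries, grouped by their titles. Per the submitters' processing notes, bcl2fastq split the pooled reads, STAR mapped them, the build was mm10 and DESeq2 tested the groups. Per the series' design text, SummarizedExperiment made the count matrix. No source used here gives versions or the gene annotation. The deposited signal is a normalized count, which the values show to be gene counts divided by the authors with 1 factor per library. Of 24421 entries 27 had names turned into dates and were left out, at most 0.149% of a library.

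The main test was limma on log2(normalized count + 1) over 11646 genes with a mean of at least 10, two-sided, with a mean-variance trend, Benjamini-Hochberg adjustment over all of them and a threshold of 0.05. Fold changes are on that scale. Values were whole multiples of 1 step per library within 0.1 reads (100% in each). This includes anti-CD22 replicate 3, with a step of 1.01. That library was left out of edgeR and DESeq2 because its step is close to 1, although its reads could be recovered. Both tests therefore used 13 libraries. DESeq2 gave no adjusted p to 3839 genes. Of 5 ratios planned 3 had both genes above the filter. The length and GC trend was removed per library with natural splines of 4 degrees of freedom on the longest GENCODE vM21 transcript (GRCm38, the assembly of mm10), known for 99.5% of tested genes and all 30 tested members. Of 202 entries in the marker, member and pathway lists 200 were found, 3 under another symbol.

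On simulated counts of 11646 genes in this design, limma called 55 of the 100 with a 1.5-fold change and 82 of the 100 with a 2-fold change, with 14 false calls. The counts were drawn independently for each gene, without a trend on length or GC. Smaller changes, such as the 1.27-fold one of Tfeb, were not simulated, so the shares do not apply to the members. The members, lists and tests were chosen with earlier results of these data known. Full values were given for the 12 tested members with the smallest p, those in the ratios, Tfeb and Mcoln1, and for 3 genes of smallest p in each pathway list, of which 1 is not reported here. Alternatives covered pseudocounts, filters, scalings, variance models, weights, the replicate block and left-out libraries. Samples of 1 replicate number were not alike (correlations of their deviations from -0.145 to 0.160), so numbers were not taken as pairs. Without molecular identifiers, reads are not independent molecules. Tools were R 4.3.3, limma 3.58.1, edgeR 4.0.16, DESeq2 1.42.0, Python 3.11.15, pandas 2.3.3 and matplotlib 3.10.9.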

Additional observations from a re-analysis of the deposited data

Results flagged for a closer look

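In 60 groups of 7 libraries (30 members in each of 2 groups), 4 held a library far from the other 6 by Dixon's test, which flags about 1 in 20 groups by chance. Tcirg1 was lowest in anti-CD22 replicate 3, at 4349.9 normalized counts against 5066 in the next library. Atp6v0d1 and Atp6v1d were highest in anti-CD22 replicate 7, at 3697 against 3189.5 and at 2562 against 2288. Lamtor4 was highest in IgG replicate 7, at 636 against 453.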

How the results depend on the processing

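No member passed limma under any of the 12 alternatives of that test or with any 1 library left out, and DESeq2 called 1, Tcirg1 (log2 fold change -0.25). The count over all genes, 1 by limma, was 2 with the replicate block, 8 with sample weights, 4 at an adjusted p under 0.10, 32 by DESeq2 and 0 by edgeR, without a mean-variance trend, with the length and GC trend removed, or without anti-CD22 replicates 1, 2 and 3. It ran from 0 to 43 with 1 library left out, 43 being without anti-CD22 replicate 7. The member median, -0.06, ran from -0.08 with sample weights to -0.04 with the trend removed, and from -0.07 to -0.05 with 1 library left out.

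The replicate block changed no call of a ratio (exact sign-flip p of 0.0156 for the ratios of Tcirg1 to Atp6v0a1 and of Tfeb to Tfe3, 0.984 for Rragd to Rragc). With the trend removed the differences were -0.24, -0.0454 and, with the sign turned, -0.0599. Together with the block their exact p were 0.0312, 0.609 and 0.969, and no call was left after adjustment. Without anti-CD22 replicates 1, 2 and 3 the ratio of Tfeb to Tfe3 (-0.28) lost its call. The ratio of Rragd to Rragc also turned with a pseudocount of 5 (-0.13), quantile normalization (-0.0401) and without those replicates (-0.0401). With 1 library left out the ratios ran from -0.41 to -0.32, from -0.33 to -0.23 and from -0.69 to 0.42, and the first 2 kept their calls. The cause was not tested.

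Of 419 fits of single members outside the leave-one-out fits, 384 kept direction and call, 34 turned sign and 1 became a call. With the trend removed, with or without the block, the log2 fold changes that turned were those of Atp6v0b (0.0358), Atp6v0d1 (0.0345), Atp6v1b2 (0.0291), Atp6v1h (-0.10), Rraga (0.0249), Rragc (0.00380), Rragd (-0.0561), Lamtor4 (0.00418) and Lamtor5 (0.0193). Without anti-CD22 replicates 1, 2 and 3 they were Atp6v1h (-0.00864), Atp6ap1 (-0.00914), Tfe3 (0.0355), Rragd (-0.12) and Lamtor1 (0.0413). Rescaled to the same total they were Atp6v1b2 (0.000829), Rragc (0.00251) and Lamtor3 (0.0113), and with quantile normalization Rragc (0.000177) and Rragd (-0.0399). Rragd turned with a pseudocount of 5 (-0.14), sample weights (-0.0412), edgeR (-0.41) and DESeq2 (-0.42), and Lamtor3 with edgeR (0.0264) and DESeq2 (0.0224). With 1 library left out sign changes came in Atp6v1b2 (-0.0337 to 0.0144), Atp6v1d (-0.0460 to 0.00363), Atp6ap1 (-0.00582 to 0.0219), Ostm1 (-0.0359 to 0.00213), Mitf (-0.0335 to 0.21), Rraga (-0.10 to 0.0142), Rragc (-0.0445 to 0.0247), Rragd (-0.73 to 0.43) and Lamtor3 (-0.0324 to 0.0579).

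Of the tested members Rragd had the largest SE, 0.813, and Rragb was too low to be tested.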
